A study of Mus musculus with 4 samples.

Results

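The genes described here were 7 subunits of the activator protein 1 (AP-1) family and its relatives in the mouse brain: Fos, Fosb and Fosl2 of the Fos group, Jun, Junb and Jund of the Jun group, and Atf3. They were taken by gene symbol from the gene list of the count matrices, and all 7 were found among the 31053 genes of that list. The samples were 4 whole mouse brains (C57BL/6J males, postnatal day 90), all dissociated by enzymatic digestion and profiled by droplet single-cell RNA-seq (10x Chromium 3′ chemistry, version 2). Tissue of 2 mice was processed without inhibitors. Tissue of the other 2 received actinomycin D and triptolide during perfusion, dissection and digestion, and anisomycin during dissection and digestion. Actinomycin D and triptolide block transcription, and anisomycin blocks translation. No undigested tissue was part of the comparison, so a transcript gained without inhibitors and one lost with them cannot be told apart.

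AP-1 is a dimer of basic leucine zipper proteins. Jun proteins pair with each other, with Fos proteins or with members of the ATF group, while Fos proteins bind DNA only as partners of Jun proteins. Several of these genes are immediate-early genes: signalling through MAP kinases and factors such as SRF and CREB raises their transcription within minutes, without new protein synthesis, and the RNAs are short-lived. In the brain Fos is widely used as a mark of recent neuronal activity, and in microglia and macrophages AP-1 takes part in the response to damage and inflammatory stimuli.

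In the mouse genome (build GRCm38, GENCODE annotation) Fos (ENSMUSG00000021250) lies at chr12:85473890-85477273 on the plus strand and Fosb (ENSMUSG00000003545) at chr7:19302696-19310051 on the minus strand. Fosl2 (ENSMUSG00000029135) lies at chr5:32135801-32157842 on the plus strand and Atf3 (ENSMUSG00000026628) at chr1:191170296-191218039 on the minus strand. Jun (ENSMUSG00000052684) is a gene of 1 exon at chr4:95049034-95052222 on the minus strand. Junb (ENSMUSG00000052837) lies at chr8:84974484-84978718 on the minus strand, and Jund (ENSMUSG00000071076), also of 1 exon, at chr8:70698949-70700616 on the plus strand. Jun and Jund each overlap an annotated antisense gene (Junos and Gm11175), and the 3′ end of Junb overlaps Prdx2 on the other strand. Whether the counting used strand is not given in the sources used here, so reads of these partners cannot be told apart from those of the 3 Jun genes.

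The 200 bases before the RefSeq start of 5 members are shown because the levels of these RNAs over all cells, given further on, did not overlap between the groups. RefSeq promoters on build GRCm38.p6 were matched by gene for all 7. That of Jund, which did not overlap either, and that of Fosl2, which did, are not shown because their RefSeq starts lay 1210 and 299 bases from the nearest GENCODE start. Each sequence runs 5′ to 3′ on the strand of the gene, and capitals mark the letters matched by a searched motif on either strand.
Fos, chr12:85473690-85473889, plus strand: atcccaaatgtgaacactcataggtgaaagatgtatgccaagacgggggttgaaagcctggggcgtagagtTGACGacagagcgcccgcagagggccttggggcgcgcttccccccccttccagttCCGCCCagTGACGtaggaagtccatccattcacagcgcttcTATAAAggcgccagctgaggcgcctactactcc
Fosb, chr7:19310046-19310245, minus strand: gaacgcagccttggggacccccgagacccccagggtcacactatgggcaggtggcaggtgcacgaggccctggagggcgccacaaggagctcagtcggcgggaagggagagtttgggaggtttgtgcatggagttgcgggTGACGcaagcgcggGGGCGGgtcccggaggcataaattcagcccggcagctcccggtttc
Jun, chr4:95052223-95052422, minus strand: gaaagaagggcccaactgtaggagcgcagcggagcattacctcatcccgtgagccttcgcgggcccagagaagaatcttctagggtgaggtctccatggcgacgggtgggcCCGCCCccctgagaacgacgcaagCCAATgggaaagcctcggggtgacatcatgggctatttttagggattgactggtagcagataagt
Junb, chr8:84978749-84978948, minus strand: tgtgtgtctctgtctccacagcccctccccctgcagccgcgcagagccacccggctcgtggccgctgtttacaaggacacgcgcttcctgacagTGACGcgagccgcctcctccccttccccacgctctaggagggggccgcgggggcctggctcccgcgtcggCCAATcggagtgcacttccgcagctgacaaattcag
Atf3, chr1:191183334-191183533, minus strand: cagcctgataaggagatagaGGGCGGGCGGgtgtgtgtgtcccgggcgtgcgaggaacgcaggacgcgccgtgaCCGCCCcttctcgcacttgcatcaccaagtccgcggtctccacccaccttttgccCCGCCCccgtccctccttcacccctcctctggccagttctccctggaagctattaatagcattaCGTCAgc

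The motifs were searched in the 250 bases before the start, on both strands. TGACG, the core of the CREB and ATF site, was found in Fos at 129 and 66 bases before the start, in Fosb at 60, in Junb at 106 and in Atf3 at 7. It was present in 17.8% of 32851 promoters. The full palindrome TGACGTCA, which contains TGACG, was found in none of the 7 and in 1.55% of all promoters, and the AP-1 site TGANTCA in none of the 7 and in 6.75% of all. TATAAA stood 33 bases before the start of Fos (12.4% of all promoters), and CCAAT 65 bases before that of Jun and 36 before that of Junb (33.8% of all). GGGCGG, the core of the GC box, was found in Fos, Fosb, Fosl2, Jun and Atf3 (32.7% of all), where its copies in Atf3 partly overlapped each other. The CArG box was found in none of the 7 windows and in 1.47% of all promoters. A match is a description of letters, and these windows hold no measurement of binding.

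The matrices held 12487 cell barcodes and between 5134359 and 7529804 unique molecular identifiers (UMIs, each 1 counted RNA molecule) per animal. After filters 9811 cells remained, with median depths of 1435.5 to 1681 UMIs, and any 2 libraries shared 9 to 13 barcodes. The cells fell into 32 clusters, which markers placed in 15 classes. Classes are called "-like" because their names rest on markers alone, and 9 of them had at least 20 cells in every animal. Microglia-like cells numbered 721 and 869 without and 699 and 953 with inhibitors, and their largest cluster expressed all 8 of the microglial markers used, among them P2ry12, Tmem119 and Cx3cr1. Values of the 4 animals are given below in the order of animals 1 and 2 without and animals 1 and 2 with inhibitors. Levels are given as CPM (the UMIs of a gene relative to all UMIs of the class, scaled by TMM), and differences are log2 fold changes, without over with inhibitors, ± SE. A gene was called at a Benjamini-Hochberg adjusted p below 0.05 over all genes tested in the class and a log2 change above 0.58, by edgeR's quasi-likelihood test on UMIs summed per animal (n = 2 and 2). Levels of different genes are not compared with each other, since a 3′ assay may capture them unequally.

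Over all cells summed, 7 members passed the filter on low counts and 1, Junb, was called higher without inhibitors, where 0.0293% of 13672 genes were called. DESeq2 called 5 of them: Fos, Fosb, Jun, Junb and Atf3. In 6 of the 7, both animals without inhibitors lay above both with inhibitors, against 20.4% of all genes tested. Of these, Fosb (2 and 4 UMIs with inhibitors) passed the filter only through the animals without inhibitors, which favours this order. Junb was at 394 and 285 CPM without and 78.8 and 87.5 CPM with inhibitors, a difference of 2.03 ± 0.16 (edgeR adjusted p = 0.016). Leaving out animal 1 or animal 2 with inhibitors ended this call (adjusted p = 0.0851 and 0.221). Fos was at 283 and 147 CPM against 4.31 and 4.97 CPM, a difference of 5.52 ± 0.47 that missed the threshold (edgeR adjusted p = 0.146). Jun was at 538 and 347 against 113.5 and 126 CPM (1.89 ± 0.22, edgeR adjusted p = 0.146), and Atf3 at 32.8 and 19.5 against 9.26 and 8.98 CPM (1.5 ± 0.27, edgeR adjusted p = 0.226). Fosl2, at 11.9 and 12.3 against 12.3 and 19.3 CPM, had groups that overlapped. In sums over all cells, fewer cells of a class and less RNA per cell cannot be told apart, so the classes are described next.

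The number of members called varied between the classes, but so did the number that could be tested. These counts come from separate fits and are not a comparison of classes, for which an interaction test is given further on. In microglia-like cells 5 members passed the filter and 3 (Junb, Jund and Atf3) were called higher without inhibitors, where 0.435% of genes were called. In macrophage- or monocyte-like cells 3 of 4 were called (Fos, Jun and Junb), where 0.825% of genes were. In oligodendrocyte-like cells the same 3 of 4 were called, where 0.154% of genes were. In mural-like cells 2 of 5 were called (Fos and Junb), where 0.144% of genes were. No member was called in endothelial-like cells (5 passed, 0.0121% of genes called), ependymal-like cells (3 passed, 0% of genes), astrocyte-like cells (2 passed, 0.037%), neuron-like cells (2 passed, 0.0693%) or choroid plexus-like cells (1 passed, 4.1%). DESeq2 also called 0 members in these 5 classes, and at an unadjusted p under 0.05 edgeR had 1 in endothelial-like cells (Jund, lower without inhibitors), 1 in ependymal-like cells (Fos) and 0 in the others. No member was called lower without inhibitors in any class.

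Both animals without inhibitors lay above both with inhibitors in 5 of the 5 members that passed in microglia-like cells, against 16.9% of all genes tested there. The same held for 4 of 4 in macrophage- or monocyte-like cells (17.3% of genes), 3 of 4 in oligodendrocyte-like cells (19.2%), 2 of 5 in mural-like cells (16.3%) and 1 of 3 in ependymal-like cells (15.3%). It held for 0 of the members that passed in endothelial-like (17.2% of genes), astrocyte-like (16.5%), neuron-like (13.2%) and choroid plexus-like cells (23.9%), which were only 5, 2, 2 and 1 members. Over all 7 members, those too sparse to test included, it held for 2 in endothelial-like cells (Fos and Fosb), 3 in astrocyte-like (Fos, Fosb and Junb), 1 in neuron-like (Fos) and 3 in choroid plexus-like cells (Fos, Fosl2 and Jun), against 6 in microglia-like cells. No share over all genes with the sparse ones included was computed, so these counts have nothing to be set against. Some rest on few UMIs, such as 1, 2, 0 and 0 for Fos in choroid plexus-like cells. Certain members passed the filter only through the animals without inhibitors, which by itself favours this order. That was so for Fos in microglia-like (4 and 3 UMIs with inhibitors), macrophage- or monocyte-like, oligodendrocyte-like, mural-like and ependymal-like cells. It was also so for Junb in macrophage- or monocyte-like and oligodendrocyte-like cells and for Jun in the former. For them the order is no separate result.

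**Figure D1:**
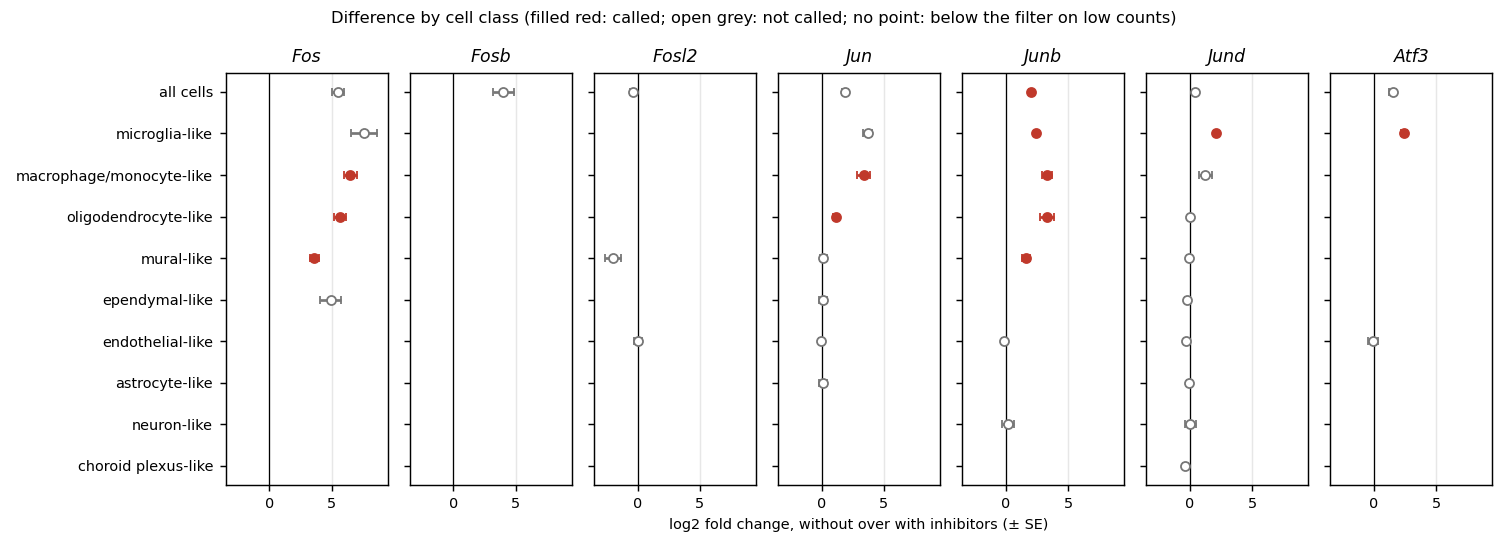
Log2 fold change, without over with inhibitors, of each member (panels) in all cells and in 9 cell classes (rows), with bars of ± SE from edgeR on sums of 2 against 2 animals. Filled red points were called, open grey points were not, and no point means that the member did not pass the filter on low counts. Red points lie in the rows of all cells, microglia-like, macrophage- or monocyte-like, oligodendrocyte-like and mural-like cells, and the points of endothelial-like cells lie between -0.31 and 0.04.

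Fos, the founding member of its group, had 872 and 495 UMIs in the microglia-like cells of the animals without inhibitors and 4 and 3 in those with inhibitors. These were 819 and 406 CPM against 3.88 and 2.46 CPM, a difference of 7.56 ± 1.04. Every animal without inhibitors was far above both with inhibitors, yet the difference was not called (edgeR adjusted p = 0.627). The animals without inhibitors differed 2.02-fold in Fos. The robust fit gave Fos 0.261 prior degrees of freedom, against a median of 34.3 over genes, so its spread was taken almost wholly from the 4 animals. Without that robust step Fos was called (edgeR adjusted p = 6.1e-11), and DESeq2 called it too (adjusted p = 1.1e-33). Leaving out animal 1 or 2 without inhibitors or animal 1 with inhibitors also gave a call. Leaving out animal 2 with inhibitors did not. A fit with 1 animal in a group takes its spread from the other group and from other genes. Such a call is therefore no measure of the spread between animals in both groups.

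In macrophage- or monocyte-like cells, which were only 26 to 38 per animal, Fos was at 2678 and 2907 CPM without and 55.1 and 0 CPM with inhibitors (120, 174, 2 and 0 UMIs). The difference was 6.51 ± 0.53 (edgeR adjusted p = 9.6e-05). In oligodendrocyte-like cells it was at 197 and 96.9 CPM against 4.77 and 1.25 CPM, a difference of 5.66 ± 0.50 (edgeR adjusted p = 4.2e-06). Both of these classes kept the 2 groups apart in every animal. In ependymal-like cells, 14 and 22 UMIs stood against 0 and 1, and the difference of 4.91 ± 0.87 was not called (edgeR adjusted p = 0.0994). Leaving out animal 1 without inhibitors gave a call there, as did leaving out animal 2 with inhibitors, with the limit given above for such fits. Fos did not pass the filter in astrocyte-like cells (13, 9, 3 and 4 UMIs), endothelial-like cells (20, 10, 0 and 5 UMIs), neuron-like cells (32, 5, 3 and 2 UMIs) or choroid plexus-like cells (1, 2, 0 and 0 UMIs).

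In mural-like cells Fos was at 433 and 310 CPM without and 22.1 and 36.1 CPM with inhibitors (3.61 ± 0.35, edgeR adjusted p = 1.93e-10). Most of the UMIs without inhibitors sat in 1 cluster of 40 cells led by Tagln, Acta2, Pln and Myh11, genes of contractile smooth muscle. It held 8, 13, 11 and 8 of the 55, 94, 67 and 87 mural-like cells and 58, 53, 3 and 1 of the 70, 67, 4 and 7 Fos UMIs. Within it the difference was 4.61 ± 0.50 (edgeR adjusted p = 4.2e-06 over 339 genes). In every animal this cluster had fewer cells than the minimum set for testing a class. Fos passed the filter there only through the animals without inhibitors. Without this cluster, 12, 14, 1 and 6 UMIs remained and the call was lost (1.87 ± 0.71, edgeR adjusted p = 0.513). A second mural-like cluster held 0 Fos UMIs in all 4 animals, in 25, 43, 32 and 33 cells. This split by cluster was chosen after the values were seen, on the same counts, so its p-values are no separate evidence for the difference.

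**Figure D2:**
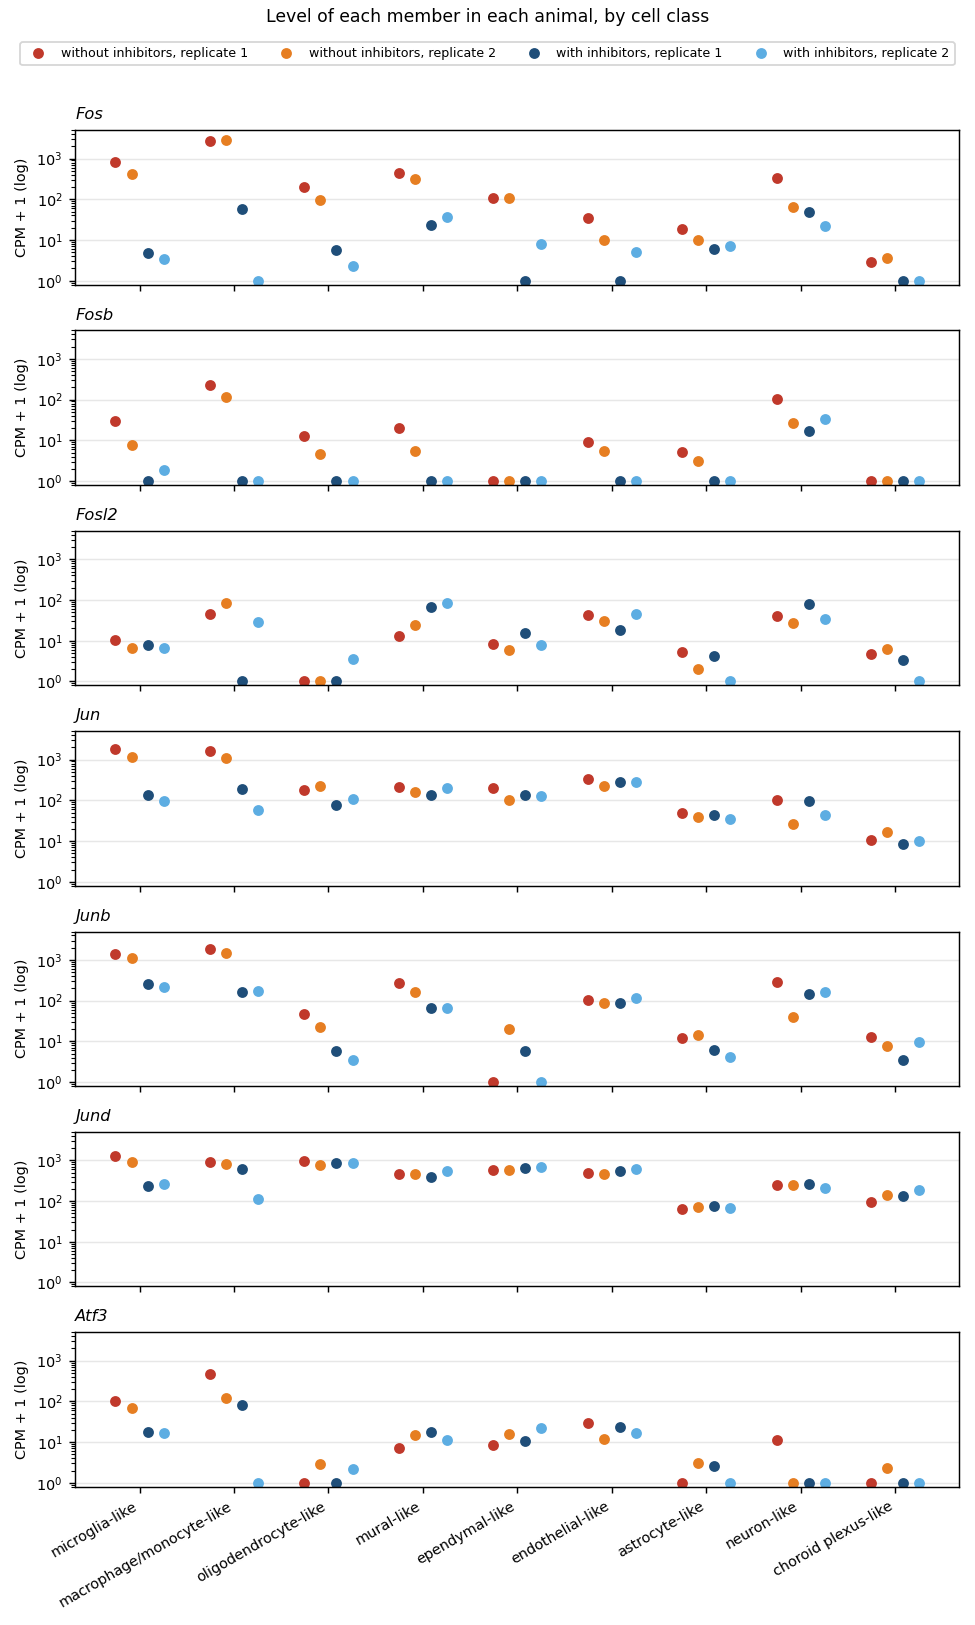
Level of each member (panels, CPM + 1 on a log axis) in each of the 4 animals, by cell class on the horizontal axis. Red and orange points are the animals without inhibitors and dark and light blue points those with inhibitors, 1 point per animal. In microglia-like cells the red and orange points of Fos lie at 819 and 406 CPM and the blue points at 3.88 and 2.46 CPM, while for Jund in oligodendrocyte-like cells the colours are mixed.

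Fosb, a close relative of Fos, was sparse. It had 31 and 8 UMIs in microglia-like cells without and 0 and 1 with inhibitors, and 10, 7, 0 and 0 UMIs in macrophage- or monocyte-like cells. Oligodendrocyte-like cells held 8, 2, 0 and 0 Fosb UMIs and endothelial-like cells 5, 5, 0 and 0. It did not pass the filter in any class. Where the group with inhibitors held no Fosb UMI, a floor of 3 UMIs over that group was used. The mean level without inhibitors was 4.05 times this floor in macrophage- or monocyte-like, 3.69 in oligodendrocyte-like and 4.16 in endothelial-like cells. It was 1.45 times the floor in mural-like and 1.30 times in astrocyte-like cells. These ratios take the counts without inhibitors as exact, so they are not lower bounds on the difference.

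Fosl2, which encodes the Fos relative Fra-2, was called in no class. Microglia-like cells held 10 and 7 Fosl2 UMIs without and 7 and 7 with inhibitors. Endothelial-like cells, the class with the most Fosl2 UMIs in all 4 animals, were at 42.7 and 29.1 CPM without and 17.1 and 44.4 CPM with inhibitors (0.04 ± 0.33, edgeR adjusted p = 0.994). In mural-like cells Fosl2 was lower in both animals without inhibitors (2 and 5 UMIs) than in both with inhibitors (12 and 16 UMIs), a difference of -1.97 ± 0.64 that was not called (edgeR adjusted p = 0.364).

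Jun, the main dimer partner of Fos, was at 1813 and 1167 CPM in microglia-like cells without and 131 and 97.8 CPM with inhibitors (3.71 ± 0.37). As for Fos, the robust fit did not call it (edgeR adjusted p = 0.293), while the fit without the robust step (adjusted p = 1.8e-11) and DESeq2 (2.5e-18) did. Leaving out 1 animal in turn gave a call in 3 cases and none without animal 2 with inhibitors, with the limit given for Fos. Jun rose without inhibitors in macrophage- or monocyte-like cells (1584 and 1069 against 193 and 56.8 CPM, 3.36 ± 0.50, edgeR adjusted p = 0.00537). It also rose in oligodendrocyte-like cells, at 182 and 230 against 76.4 and 107 CPM (1.13 ± 0.18, edgeR adjusted p = 0.00041), where DESeq2 did not call it (adjusted p = 0.297). In endothelial-like cells Jun stood at 330 and 219 CPM without and 282 and 284 CPM with inhibitors, so the groups overlapped (-0.09 ± 0.14, edgeR adjusted p = 0.972). They overlapped too in mural-like, ependymal-like and astrocyte-like cells, with differences of 0.13, 0.12 and 0.11.

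Junb, a Jun protein that can also restrain Jun, was called in 4 classes. In microglia-like cells it was at 1436 and 1131 CPM without and 250.2 and 218 CPM with inhibitors (2.46 ± 0.11, edgeR adjusted p = 3.6e-18). In macrophage- or monocyte-like cells 84 and 88 UMIs stood against 6 and 6 (3.29 ± 0.39, edgeR adjusted p = 0.00117). In oligodendrocyte-like cells 32 and 12 UMIs stood against 3 and 2 (3.29 ± 0.55, edgeR adjusted p = 0.000908), but leaving out animal 1 without inhibitors ended the call (0.59) and DESeq2 did not make it (0.718). In mural-like cells the values were 43, 35, 12 and 13 UMIs (1.63 ± 0.33, edgeR adjusted p = 0.00665). That call was lost in DESeq2, in the fit without the robust step, and when animal 1 without inhibitors or either animal with inhibitors was left out (edgeR adjusted p of 0.226, 0.142 and 0.103). It was also lost without the cluster led by Tagln, which held 35, 17, 4 and 2 of these UMIs (0.45, edgeR adjusted p = 0.982). Endothelial-like cells showed 102 and 89.2 against 89.2 and 117 CPM, with the groups overlapping.

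Jund, the Jun gene with the steadiest expression in most tissues, was called in microglia-like cells and in no other class tested. It was at 1245 and 889 CPM there without and 231 and 259 CPM with inhibitors (2.12 ± 0.14, edgeR adjusted p = 1.74e-08). In oligodendrocyte-like cells it was at 948 and 788 against 847 and 860 CPM, and the difference was 0.03 ± 0.10 (edgeR adjusted p = 0.972). In macrophage- or monocyte-like cells the difference was 1.23 ± 0.53 (edgeR adjusted p = 0.898), on 41, 48, 22 and 4 UMIs. Without animal 1 with inhibitors, which leaves 1 animal in that group, it was 2.89. In endothelial-like cells Jund was lower in both animals without inhibitors (477 and 461 CPM) than in both with inhibitors (558 and 602 CPM), but this was not called (-0.31 ± 0.10, edgeR adjusted p = 0.723). Ependymal-like cells showed the same order, with 564 and 577 against 636 and 694 CPM (-0.22, edgeR adjusted p = 0.996).

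Atf3, a stress-induced partner of Jun proteins that often represses its targets, was called in microglia-like cells. It was at 103 and 68.9 CPM without and 16.5 and 15.6 CPM with inhibitors (2.40 ± 0.25, edgeR adjusted p = 8.2e-09). Macrophage- or monocyte-like cells held 21, 7, 3 and 0 Atf3 UMIs, below the filter. In endothelial-like cells the values were 27.9 and 10.9 against 22.3 and 15.9 CPM, with the groups overlapping (-0.11 ± 0.40, edgeR adjusted p = 0.982). Every other class tested held at most 3 Atf3 UMIs in any animal.

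Whether the difference was larger in microglia-like cells than elsewhere was tested by the interaction of class and inhibitors, with the animal as a block. Against endothelial-like cells 5 of the 6 members tested had a larger difference in microglia-like cells, where 0.334% of genes did. These were Jun (by 3.77 ± 0.16, edgeR adjusted p = 3.1e-117), Jund (by 2.40 ± 0.14, 5e-66), Junb (by 2.59 ± 0.19, 7.7e-37), Atf3 (by 2.46 ± 0.46, 4.74e-05) and Fos (by 4.66 ± 1.09, 0.00649). Every interaction fit had 2 residual degrees of freedom of its own. SEs and p-values this small therefore draw on the spread shared over genes and do not measure the spread between animals. For Jun in microglia-like cells alone the SE was 0.37 and the difference was not called. The call on Fos was lost without animal 2 with inhibitors (0.08, adjusted p = 1), which leaves as the group with inhibitors an animal whose endothelial-like cells held 0 Fos UMIs. Against astrocyte-like cells Fos, Jun and Jund of 5 tested had larger differences (0.155% of genes), by 6.29 ± 0.99, 3.57 ± 0.35 and 2.13 ± 0.26. Against mural-like cells the same 3 of 6 did (0.145% of genes), by 3.85 ± 0.68, 3.56 ± 0.31 and 2.12 ± 0.24. The calls on Fos against these 2 classes were lost without animal 2 with inhibitors (adjusted p of 0.0886 and 0.826).

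Jun and Jund also had larger differences in microglia-like than in oligodendrocyte-like cells (2 of 6 tested, 0.206% of genes), by 2.58 ± 0.22 and 2.08 ± 0.13. Fos (1.92) and Junb (-0.83) were not called there. The same 2 were called against ependymal-like cells (2 of 5, 0.0733% of genes), by 3.52 ± 0.37 and 2.31 ± 0.26, and Jund against choroid plexus-like cells (1 of 5, 0.232% of genes), by 2.46 ± 0.25. Against neuron-like cells Fos and Jun were called (2 of 7, 0.0405% of genes), by 5.08 ± 1.18 and 3.76 ± 0.88, both at an edgeR adjusted p of 0.0402. Without the filter on low counts both of those calls were lost (adjusted p of 0.0917 and 0.103). Leaving out any 1 animal ended the call on Jun (0.207 to 1), and the call on Fos held only without animal 1 without inhibitors (0.0213, otherwise 0.25 to 1). Against macrophage- or monocyte-like cells 0 of 7 were called (0.0131% of genes), while edgeR gave an unadjusted p under 0.05 for 248 genes in all.

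RNA released from broken cells can carry UMIs of microglial genes into other droplets. Outside microglia-like and macrophage- or monocyte-like cells, 7 microglial genes (C1qa, C1qb, C1qc, Cx3cr1, P2ry12, Csf1r and Tmem119) together stood at 0.369% to 3.94% of their level in microglia-like cells, the highest values being in neuron-like cells. At that rate, astrocyte-like cells of the animals without inhibitors would hold 5.95 and 5.34 Fos UMIs, against 13 and 9 counted, and 10.4 and 14.9 Junb UMIs, against 8 and 13 counted. In oligodendrocyte-like cells the rate gives 4.50 and 1.74 Fos UMIs, against 133 and 53 counted, and 7.89 and 4.84 Junb UMIs, against 32 and 12. In mural-like cells it gives 0.802 and 0.705 Fos UMIs, against 70 and 67. In macrophage- or monocyte-like cells the 7 genes stood at 31.2% to 41.8% of the microglial level, which would carry 46.5 and 29.2 Jun UMIs, against 71 and 64 counted, 36.8 and 28.3 Junb UMIs, against 84 and 88, 31.9 and 22.2 Jund UMIs, against 41 and 48, and 21 and 10.2 Fos UMIs, against 120 and 174. Gene by gene these values were unequal. The 3 C1q genes stood at 35.5% to 54.7% of their microglial level there, Csf1r at 30.6% to 71.6% and Cx3cr1 at 18.0% to 23.7%. P2ry12 stood at 2.02% to 7.39% and Tmem119 at 0.759% to 3.49%. The rate in this class thus depends on the gene taken, and the summed rate is not a measure of RNA carried into it. The part of such RNA in the differences was not tested further.

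To set cells side by side at 1 depth, each cell was thinned to 1000 UMIs, and 75, 133, 90 and 190 microglia-like cells below that depth were left out. Shares are given per animal as a description: with 2 animals a side, the smallest p an exact permutation test can give is 0.333. Fos was then seen in 114 of 646 and 91 of 736 microglia-like cells without inhibitors (17.6%, exact 95% interval 14.8 to 20.8%, and 12.4%, 10.1 to 15%). With inhibitors it was seen in 1 of 609 and 2 of 763 cells (0.164%, interval 0.00416 to 0.911%, and 0.262%, 0.0318 to 0.944%). Intervals cover counting error only. Jun was in 46.0% and 36.3% of the cells against 12% and 9.31%, Junb in 41.2% and 41.3% against 21% and 17.4%, and Jund in 46.7% and 41.2% against 20.7% and 22.1%. Atf3 was in 5.73% and 4.48% against 1.64% and 1.18%. Choroid plexus-like cells, which had the lowest shares, showed Fos in 1 of 131 and 1 of 164 cells without inhibitors (0.763% and 0.61%), at median depths of 2611 and 2378 UMIs before thinning against 1462 and 1409 in microglia-like cells. With inhibitors, choroid plexus-like cells held 0 Fos UMIs in both animals before thinning, on 153 and 123 cells. Unthinned, Fos was seen in 20.2%, 14.8%, 0.459% and 0.171% of the largest microglia-like cluster.

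Without inhibitors the members were often seen together in 1 cell. At 1000 UMIs, 2 or more members were detected in 44.0% (exact 95% interval 40.1 to 47.9%) and 38.2% (34.7 to 41.8%) of microglia-like cells without and in 9.52% (7.31 to 12.1%) and 8.39% (6.52 to 10.6%) with inhibitors. The group means were 41.1% ± 4.09 and 8.96% ± 0.80 (SD, n = 2). With 3 or more members the shares were 28.2%, 19.6%, 0.493% and 0.524%, or 182, 144, 3 and 4 cells. Animal 1 without inhibitors had 68, 24 and 4 cells with 4, 5 and 6 members, animal 2 had 51 and 13 cells with 4 and 5, and the highest number in any cell with inhibitors was 3. At least 1 member was nevertheless detected in 46.1% and 41.9% of microglia-like cells with inhibitors. In oligodendrocyte-like cells 2 or more members were seen in 14% and 13.5% against 5.13% and 6.75%. In endothelial-like cells the shares overlapped, at 15.3% and 10.3% against 14.9% and 15.8%.

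**Figure D3:**
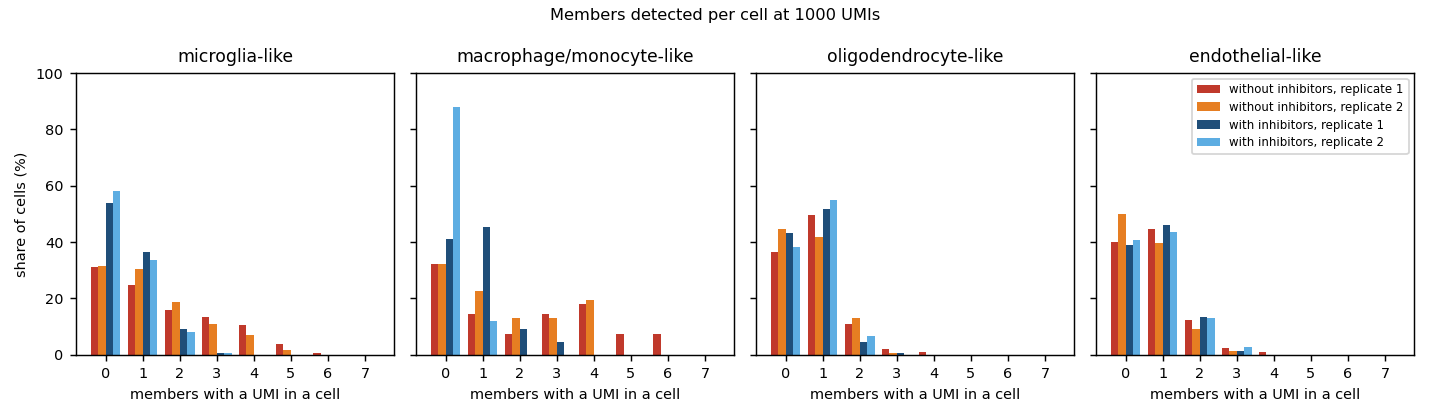
Share of cells (%, vertical axis) by the number of members with a UMI in a cell thinned to 1000 UMIs (horizontal axis), in 4 classes. Bars are single animals, red and orange without and blue with inhibitors. In microglia-like cells the bars at 3 or more members are red and orange with blue bars near 0 (0.493% and 0.524% of cells), and in endothelial-like cells the 4 colours are of like height.

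Pairs of members were set against the product of their separate shares, taking pairs for which the product gave at least 5 cells. In microglia-like cells without inhibitors 13 of 13 pairs in animal 1 and 9 of 9 in animal 2 were seen together more often than the product, with a median ratio of 1.97 (range 1.46 to 3.68) and 1.75 (1.33 to 2.30). Fos and Jun were both seen in 15.9% of cells where the product was 8.11%, and in 10.3% where it was 4.49%. Of the cells with Fos, 103 of 114 and 76 of 91 also held Jun. With inhibitors 3 pairs in each animal could be compared, and 1 of the 3, Jun and Jund, was above the product in both (ratios 1.26 and 1.46). Cells are not replicates, so no test is attached to these ratios.

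**Figure D4:**
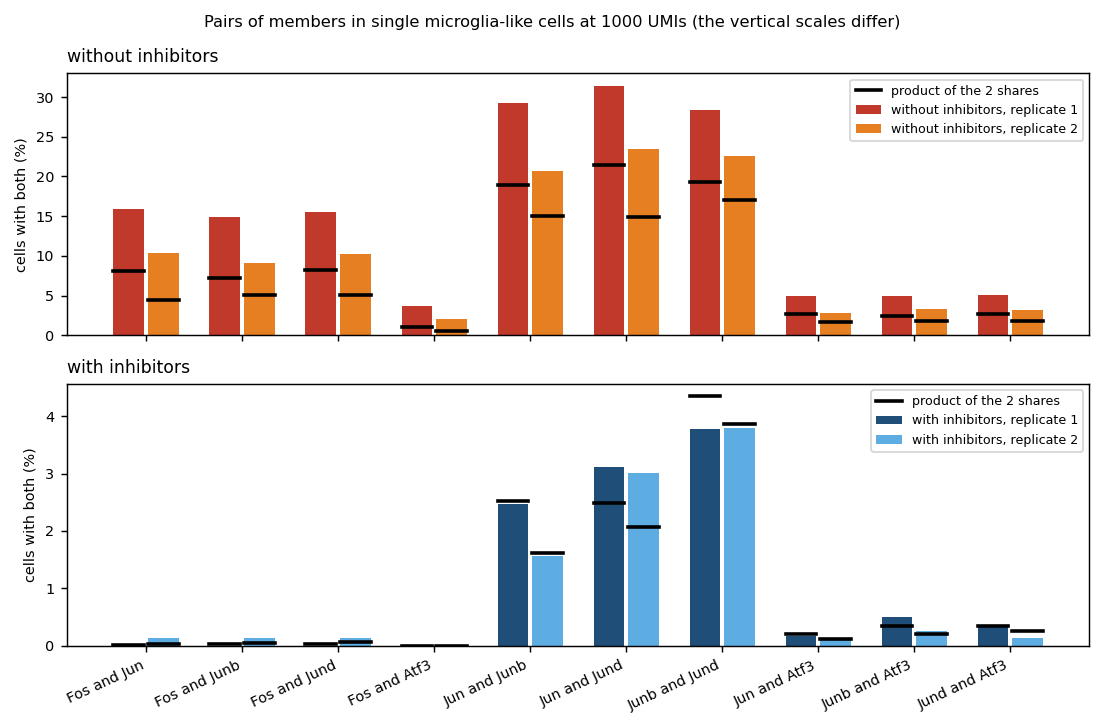
Share of microglia-like cells (%) thinned to 1000 UMIs that held both members of a pair, without inhibitors (upper panel) and with inhibitors (lower panel, on a smaller vertical scale). Bars are single animals, and black lines mark the product of the shares of both members. Without inhibitors all bars shown stand above their line, for example 15.9% against 8.11% for Fos and Jun in animal 1.

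The UMIs were unevenly spread over cells. Of the thinned microglia-like cells without inhibitors, 20 of 646 (3.10%) and 22 of 736 (2.99%) held 50% of the Fos UMIs, with up to 25 and 15 in a cell. For Jun the same part was held by 64 (9.91%) and 57 cells (7.74%). Microglia-like cells without inhibitors with 3 or more members had median depths before thinning of 1637.5 and 1629.5 UMIs, against 1461.5 and 1408 in those with none. Of 4 microglial markers at 1000 UMIs, P2ry12 (2.95 and 2.99 mean UMIs against 2.26 and 2.55) and Tmem119 (2.54 and 2.73 against 2.14 and 2.41) were higher in these cells in both animals. Csf1r was lower in both (1.94 and 1.90 against 2.16 and 2.02), and Cx3cr1 was higher in one and lower in the other (2.36 and 2.26 against 2.18 and 2.32). Their median mitochondrial share was 3.68% and 4.05% against 4.09% and 4.77%. The part of depth in these counts was not tested.

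The members were left out of the genes used for clustering, so the clusters were not formed on their levels. Microglia-like clusters differed in their member levels. In the largest, which made up 436, 506, 436 and 586 cells, Fos was at 851, 487, 2.97 and 1.30 CPM (here without TMM scaling). In the next 2 clusters by size it was at 697, 167, 8.80 and 3.16, and at 1043, 399, 0 and 7.88. A cluster of 37, 27, 24 and 21 cells led by Bcl2a1a, Gng10 and Tyrobp held 4, 0, 0 and 0 Fos UMIs and 11, 1, 2 and 0 Jun UMIs, and its cells were shallow, at a depth ratio of 0.562. In the largest cluster alone, Jun was called by the robust fit (3.79, edgeR adjusted p = 0.0359), and in the class without it as well (3.51, 3.2e-12), while Fos was called in neither (8.23, 0.309, and 6.52, 0.888). This split was added after the values were seen.

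The mix of members in microglia-like cells differed between the groups. Of all member UMIs in microglia-like cells, Fos made up 15% and 11% without and 0.607% and 0.412% with inhibitors, and Jun 33.2% and 31.8% against 20.5% and 16.3%. Junb made up 26.3% and 30.8% against 39.2% and 36.4%, and Jund 22.8% and 24.2% against 36.1% and 43.2%. These are shares of counted molecules. Together the members were 0.532% and 0.358% of all microglial UMIs without and 0.0641% and 0.0592% with inhibitors, while in endothelial-like cells they were 0.101% and 0.0792% against 0.0968% and 0.104%.

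The source of each member's UMIs over the whole sample differed too. Microglia-like cells held 66.5% and 57.6% of all Fos UMIs without and 20% and 11.5% with inhibitors. For Jun these shares were 77.5% and 70.2% against 25.6% and 18.1%, while the share of endothelial-like cells was 8.06% and 11.9% against 40.8% and 51.6%. Junb stayed mostly microglial with inhibitors, at 83.8% and 82.7% against 70.5% and 57.9%. Endothelial-like cells were the largest single source of Fosl2 in all 4 animals, with 47.3%, 44.4%, 22.8% and 52.5%. With inhibitors only 20 and 26 Fos UMIs were left in all cells, so those shares rest on few molecules.

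**Figure D5:**
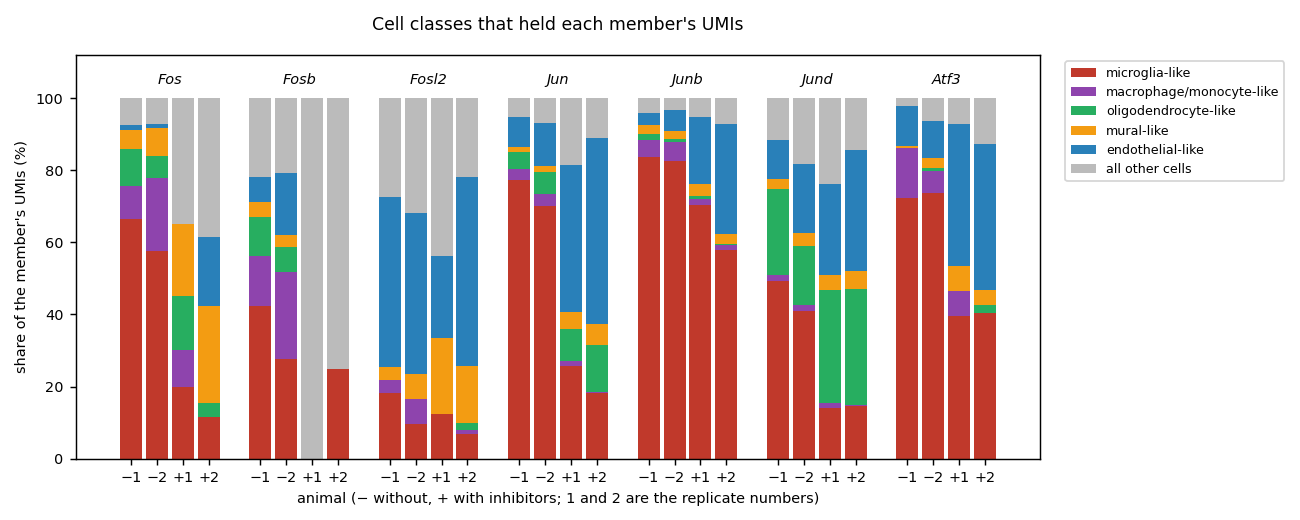
Share (%) of each member's UMIs held by each cell class, 1 bar per animal, with minus marking animals without and plus those with inhibitors. Red is microglia-like, purple macrophage- or monocyte-like, green oligodendrocyte-like, orange mural-like, blue endothelial-like and grey all other cells. The red part of Jun falls from 77.5% and 70.2% to 25.6% and 18.1%, and that of Junb stays at 57.9% or more.

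The animals without inhibitors were not alike in Fos. Animal 1 was 1.93 times animal 2 over all cells, 2.02 times in microglia-like cells, 2.03 times in oligodendrocyte-like cells and 5.07 times in neuron-like cells, but 0.921 times in macrophage- or monocyte-like cells. In neuron-like cells this left 32 Fos UMIs in animal 1 against 5, 3 and 2 in the others, and Junb was at 29, 3, 9 and 15 UMIs. Most of the difference in Fos in neuron-like cells thus came from 1 animal.

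Of the classes too small to test, olfactory ensheathing-like cells came from animal 1 of each group alone (29 and 32 cells), with 22 Fos UMIs without and 0 with inhibitors. Fibroblast-like cells held 9 and 21 Jun UMIs without and 3 and 5 with inhibitors, in 19, 37, 32 and 37 cells, and 2, 6, 0 and 0 Fos UMIs. Oligodendrocyte precursor-like cells held 0, 1, 0 and 0 Fos UMIs and no Junb UMI in 17, 15, 18 and 28 cells. These values have no test.

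The genes most like Fos, by Pearson's r of log2(CPM + 1) over 36 sums of 9 classes in 4 animals among 10509 genes, were Fosb (0.77), Egr1 (0.68), Hspa1a (0.65), Jun (0.65) and Junb (0.58). Those most like Atf3 were Zfp36 (0.82), Jun (0.82), AU020206 (0.81), Ppp4c (0.79) and Capzb (0.78). For Jun they were H3f3b (0.82), Itm2b (0.82), Atf3 (0.82), Klf6 (0.82) and Tmsb4x (0.81), and for Junb Btg2 (0.85), Lyl1 (0.85), B2m (0.83), Ssh2 (0.83) and Mef2c (0.83). The sums share animals and cell classes, so these values are descriptions. In microglia-like cells Zfp36, an mRNA decay factor, was at 538 and 406 CPM without and 70.8 and 58.3 CPM with inhibitors (2.87 ± 0.14, edgeR adjusted p = 6.9e-16). Hspa1a, a heat shock chaperone, was at 339 and 234 against 4.85 and 4.11 CPM (5.97 ± 0.26, 4.9e-15). Egr1, an immediate-early zinc finger factor, was at 149 and 59.0 against 1.94 and 6.57 CPM and was not called (4.49 ± 1.21, 0.822).

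Other genes of the AP-1 pathway were counted from 4 lists, and so short a list would hold few calls whatever its genes: of all 8739 genes tested in microglia-like cells, 38 were called higher and 2 lower, and 531 had an unadjusted p under 0.05. Of 30 other bZIP genes that can pair with or compete with AP-1, 23 passed the filter in microglia-like cells and 0 were called by edgeR, with 4 at an unadjusted p under 0.05 and a median log2 change of 0.03 (all genes -0.002). Of 30 MAP kinases and SRF or ETS factors upstream of AP-1, 26 passed and 0 were called, with 1 at an unadjusted p under 0.05 and a median of -0.02. Of 20 AP-1 target genes, 8 passed and 0 were called, with 2 at an unadjusted p under 0.05 and a median of 0.16. Of 16 phosphatases and Sprouty genes that feed back on MAP kinases, 8 passed and 1, Dusp1, was called, with a median of 0.17 for the list. DESeq2 also called 1 gene of the 4 lists in microglia-like cells. Over all cells 28, 30, 14 and 14 genes of the bZIP, kinase, phosphatase and target lists passed, and edgeR and DESeq2 both called 0, with 2, 4, 4 and 2 at an unadjusted edgeR p under 0.05. Of all 13672 genes tested there 4 were called and 990 had an unadjusted p under 0.05.

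Dusp1, which switches off MAP kinases and is itself an immediate-early gene, was at 350.2 and 251 CPM in microglia-like cells without and 9.70 and 3.29 CPM with inhibitors (5.56 ± 0.28, edgeR adjusted p = 3.6e-10). In macrophage- or monocyte-like cells it had 39 and 70 UMIs without and 0 and 0 with inhibitors, and was called as well (edgeR adjusted p = 0.000874). In mural-like cells Dusp1 stood at 49, 56, 57 and 48 UMIs (-0.01, edgeR adjusted p = 1), where Fos was called. The only other call on these lists in a class was Mt2, a metallothionein, in mural-like cells (70, 70, 32 and 34 UMIs, 1.09 ± 0.24, edgeR adjusted p = 0.0232).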

How the data were processed

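The deposited files were matrices of raw UMI counts per gene and cell barcode, one per animal, which the authors made with Cell Ranger 3.0.0 on mm10 (GRCm38) per the labels. Depth was 5134359 to 7529804 UMIs per animal, and every per-sample column was used.

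Cells with at least 400 genes and at most 20% mitochondrial UMIs were kept, doublets were called per library at 0.8% per 1000 cells, and 256 were removed. Cells were clustered (scikit-learn 1.9.0 and leidenalg 0.10.2, 2000 variable genes, 30 components, Leiden resolution 1) and named from markers. The members, the genes of the lists, a further set of excluded genes, and histone and heat shock genes were left out of the variable genes. The same genes were left out for the doublet scores. UMI counts were summed per animal over all cells and over each class with at least 20 cells per animal, filtered with filterByExpr, and tested in edgeR 4.0.16 (TMM, robust quasi-likelihood fit, 2 residual degrees of freedom) in R 4.3.3. DESeq2 1.42.0 was an alternative. Groups came from the labels, and the replicates were separate mice. The interaction fits took 8 sums of 2 classes, with the animal as a block. Genes named were all members, the 5 nearest genes of Fos, Jun, Junb and Atf3 among those of at least 10 CPM on average, and list genes called. Thinning to 1000 UMIs was repeated at 500 and 1500. The test script was checked on simulated data.

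The members, lists and tests were chosen with earlier results of these data known. Genes can share reads with overlapping genes. Animals of the same replicate number were not treated as pairs in the main fits. The correlation of their deviations lay between -0.22 and 0.10 over the sums, which cannot show how the animals were handled. Olfactory ensheathing-like cells came from replicate 1 of each group alone (29 and 32 cells), so a link between animals of the same number remains possible.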

Additional observations from a re-analysis of the deposited data

Results flagged for a closer look

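For 18 pairs of a member and a class, the difference between animals without and with inhibitors was larger in microglia-like cells than in the other class by edgeR's interaction test, given as the log2 difference of the 2 differences with its adjusted p. Against endothelial-like cells these were Jun (3.77, 3.1e-117), Jund (2.40, 5e-66), Junb (2.59, 7.7e-37), Atf3 (2.46, 4.74e-05) and Fos (4.66, 0.00649). Against astrocyte-like cells they were Jun (3.57, 3.4e-20), Jund (2.13, 7e-13) and Fos (6.29, 3.8e-07). Against mural-like cells they were Jun (3.56, 2.9e-22), Jund (2.12, 5.6e-13) and Fos (3.85, 7e-05).

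Against oligodendrocyte-like cells they were Jun (2.58, 1e-23) and Jund (2.08, 5.9e-57), and against ependymal-like cells Jun (3.52, 1.6e-17) and Jund (2.31, 6.6e-16). Against choroid plexus-like cells Jund stood apart (2.46, 5.9e-19). Against neuron-like cells Fos (5.08, 0.0402) and Jun (3.76, 0.0402) did, on 32, 5, 3 and 2 Fos UMIs and 10, 2, 6 and 4 Jun UMIs in the neuron-like cells of the 4 animals. Leaving out 1 animal in turn left between 0 and 1 of these neuronal calls. Each fit had 2 residual degrees of freedom of its own, and the rest of the precision came from the spread shared over genes.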

How the results depend on the processing

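Of 795 alternative values, 646 stayed the same as the main value. For log2 changes and interaction differences this meant the same direction and the same side of the threshold. For counts it meant at most 1.5 times apart, and for differences in shares of cells within the combined SD of the groups. The 26 that changed sign were all log2 changes of members that were not called. The number of members called higher over all cells (1) became 5 with DESeq2, 5 without the filter on low counts, 3 without the robust step, 3 with stricter cells, 2 with doublets kept and 0 to 5 when 1 animal was left out. In microglia-like cells (3) it became 5 with DESeq2, without the filter and without the robust step, and 3 to 6 with 1 animal left out. In mural-like cells (2) it became 1 with DESeq2, without the robust step and with stricter cells, and 1 to 2 with 1 animal left out, and in oligodendrocyte-like cells (3) it became 1 with DESeq2. Without the filter it became 1 in endothelial-like and 1 in ependymal-like cells (0 each), and with 1 animal left out 0 to 1 in ependymal-like and in neuron-like cells. With the replicate block it was 5 over all cells, 5 in microglia-like, 1 in mural-like and 1 in ependymal-like cells. Whether the numbers pair the animals is not known here, and the block moved no other count of members by over 1.5 times. The 2 interaction calls against neuron-like cells became 0 without the filter, 1 without the robust step and 0 to 1 with 1 animal left out. List genes called over all cells (0) became 3 without the filter. The excess of microglia-like cells with 2 or more members (percentage points) was 41.5 at 1500 UMIs and 24.6 at 500. The cause of these shifts was not tested.

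With stricter cells, the log2 change became 0.27 for Jund in astrocyte-like, -0.12 for Jun in ependymal-like, -0.32 for Jun in mural-like, -0.11 for Jund in neuron-like and -0.0095 for Jund in oligodendrocyte-like cells. With doublets kept it became 0.0379 for Jund in astrocyte-like and -0.0558 for Jund in neuron-like cells, and with the replicate block -0.13 for Junb in neuron-like cells. Leaving out 1 animal gave log2 changes in endothelial-like cells of -0.75 to 0.60 for Atf3, -0.38 to 1.01 for Fosl2, -0.37 to 0.22 for Jun and -0.31 to 0.0822 for Junb. In astrocyte-like cells these were -0.0541 to 0.29 for Jun and -0.14 to 0.0609 for Jund, in ependymal-like cells -0.33 to 0.60 for Jun, and in mural-like cells -0.24 to 0.47 for Jun and -0.24 to 0.25 for Jund. In neuron-like cells they were -1.97 to 0.96 for Junb and -0.12 to 0.24 for Jund, and in oligodendrocyte-like cells -0.12 to 0.15 for Jund. A fit with 1 animal in a group assumes that it varies like the other group. Depth limits Fosb, Fosl2 and Atf3 outside microglia-like cells, where an animal often held under 10 UMIs of a class.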
